A study of Mus musculus with 9 samples.

Results

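Wild-type intestinal cells that carried the receptor EphB2 on their surface were compared with cells that did not, in 4 of the 9 libraries of the series. The libraries were chosen by their titles: EphB2-positive replicates 1 and 2, and EphB2-negative replicates 1 and 2 (n = 2 and 2). All 4 came from the intestine of C57BL/6 mice of wild-type genotype at postnatal day 6, and no transgene or treatment is named for them. The labels name both trypsin and collagenase for making single cells, sorting with an APC-labelled antibody described as one to human EphB2, and cDNA amplified by long-distance PCR. No source used here gives the stretch of intestine, the sorting gates or the number of mice, so p-values measure only the spread between these libraries, which may be technical. The 5 libraries of mice lacking IκBα (KO), 3 EphB2-positive and 2 EphB2-negative of the same strain and age, lend their spread to the tests and enter the last comparison; the labels do not say in which cells the gene was deleted.

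The intestinal epithelium is renewed from stem cells at the base of the crypts, which Wnt signals maintain. Their daughters divide in the crypt, choose between absorptive and secretory fates under Notch control, and mature as they climb the villus, from whose tip they are shed. EphB2 and EphB3 are receptor tyrosine kinases induced by Wnt that are high in the lower crypt and fade upward, whereas their ligands, the B-type ephrins, rise toward the villus. In the first postnatal week crypts are still forming between the villi, Paneth cells have not matured, and enterocytes are of the suckling type, which digest lactose and milk fat and take up whole proteins from the lumen.

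Levels are in CPM, the read count scaled by edgeR to library size with TMM factors. Where 4 levels follow a gene, they are EphB2-positive replicates 1 and 2, then EphB2-negative replicates 1 and 2. Log2 fold changes are EphB2-positive minus EphB2-negative, ± SE, and a gene rose or fell where edgeR's adjusted p over all 11577 genes tested was under 0.05. In bulk RNA, fewer cells of a type and less RNA per cell cannot be told apart.

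The 4 libraries held 1857595 to 2050308 reads in genes, so that 3 reads correspond to 1.37 to 1.48 CPM. The EphB2-positive replicates were the closest pair, with a chi-square of counts per degree of freedom of 3.94. EphB2-negative replicate 1 stood apart from its partner, at 25.6, and lay nearer to the EphB2-positive replicates 1 and 2, at 9.88 and 9.403. Leading results are therefore also given against EphB2-negative replicate 1 alone and against replicate 2 alone, from fits without the other, in which the lone library is assumed to vary like the other groups. Both of those comparisons share the EphB2-positive libraries. Markers of epithelium were present throughout: Epcam, an adhesion molecule of epithelial cells, stood at 1586, 1581, 1645 and 967 CPM, and Cdh1, which encodes E-cadherin, at 955, 1195, 952 and 844 CPM. Fos, a transcription factor induced within minutes of stress, stood at 106, 769, 79.9 and 674 CPM, high in both replicates numbered 2, and the 20 immediate early genes summed to 1084 and 4056 CPM in EphB2-positive and 853 and 4629 CPM in EphB2-negative cells. The part of these genes in the other results was not tested.

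Against both EphB2-negative libraries, 76 genes rose in EphB2-positive cells (0.656% of those tested) and 437 fell (3.77%), together 4.43%. Against replicate 1 alone the counts were 101 (0.872%) and 390 (3.37%), together 4.24%. Against replicate 2 alone they were 2189 (18.9%) and 2606 (22.5%), together 41.4%. No gene was called when either EphB2-positive library was left out, with 2012 and 2031 genes at an unadjusted p under 0.05, nor in a fit of only the 4 WT libraries, where 1750 had such a p; DESeq2 on all 9 libraries called 131 higher and 845 lower. The counts of calls by list are read against these shares. Of 51 genes named in the text that passed against both, all 51 also passed against replicate 2 alone and 41 against replicate 1 alone. Those not past the threshold against replicate 1 were Alpi, Apoa4, Apob, Fcgrt, Kank1, Lct, Lmx1a, Mttp, Rbp2 and Smim24, a small membrane protein, with adjusted p of 0.06, 0.12, 0.086, 0.083, 0.08, 0.16, 0.058, 0.073, 0.07 and 0.056. Every gene named below as having risen or fallen thus rests on both EphB2-positive libraries and on the spread shared with the KO groups. In 3066 genes (26.5%) both EphB2-positive libraries lay above both EphB2-negative ones, and in 3236 (28%) below them.

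The mRNA of the receptor used for the sort did not pass. Ephb2 (chromosome 4, 136647539 to 136835988 on GRCm38, minus strand) stood at 142, 160.3, 125 and 66.8 CPM (log2 fold change 0.66 ± 0.24, adjusted p = 0.12). The EphB2-positive levels were above both others, but replicate 1 of the EphB2-negative cells came close to them: the log2 fold change was 0.28 against replicate 1 (adjusted p = 0.40) and 1.18 against replicate 2 (adjusted p = 4.0e-05). Ephb3, the receptor that shares its ligands, stood at 30.5, 17.3, 12.3 and 4.36 CPM, without overlap and without passing (log2 fold change 1.5004 ± 0.46, adjusted p = 0.079). Ephb4, a further B-type receptor, rose, at 237, 232, 136 and 68.7 CPM (log2 fold change 1.20 ± 0.26, adjusted p = 0.037). Of the ligands, Efnb2 fell, at 8.84, 18.3, 37.9 and 55.2 CPM (log2 fold change -1.77 ± 0.33, adjusted p = 0.027), and in each EphB2-negative library it was above both EphB2-positive ones. Efnb1, the other ephrin of the villus, overlapped, at 50.6, 48.3, 54.8 and 43.1 CPM (log2 fold change 0.015 ± 0.19, adjusted p = 0.97). Of 11 Eph and ephrin genes tested, 1 rose, 1 fell and 9 did not pass.

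Stem cell genes of the crypt base lay on the EphB2-positive side in 21 of 22 tested, without overlap in 20, although few passed. In 1 the log2 fold change was below 0, also without overlap. Lgr5 (chromosome 10, 115450311 to 115587780 on GRCm38, minus strand), the R-spondin receptor that marks the cycling stem cells, stood at 119, 86.3, 42.002 and 11.6 CPM. Both EphB2-positive libraries were highest, EphB2-negative replicate 1 was lower, and replicate 2 was lowest. The same order held for Axin2, the feedback inhibitor and readout of Wnt signalling (173, 162, 72.1 and 21.3 CPM), for Smoc2, a secreted matrix protein of stem cells (165, 155, 70.3 and 14.03 CPM), for Olfm4, a secreted glycoprotein (3378, 3179, 1450 and 294 CPM), and for Ascl2, the transcription factor of stem cell fate (51.6, 27.6, 16.4 and 2.42 CPM). None of these 5 passed against both EphB2-negative libraries (adjusted p = 0.056, 0.059, 0.10, 0.11 and 0.087). Against replicate 2 alone, all 5 rose, with log2 fold changes of 3.14, 2.97, 3.50, 3.48 and 3.996. Against replicate 1 alone, Lgr5, Axin2 and Smoc2 rose, by 1.29, 1.22 and 1.19, and Olfm4 and Ascl2 did not pass (1.18, adjusted p = 0.20, and 1.27, adjusted p = 0.068).

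The stem cell genes that rose against both were Lrig1, Rnf43 and Msi1. Lrig1, an inhibitor of ErbB receptors, stood at 134, 146, 73.5 and 40.2 CPM (log2 fold change 1.29 ± 0.26, adjusted p = 0.032). Rnf43, the ubiquitin ligase that removes Wnt receptors from the surface, stood at 159.7, 174, 87.7 and 43.1 CPM (log2 fold change 1.35 ± 0.28, adjusted p = 0.035), and Msi1, an RNA-binding protein of progenitors, at 43.2, 37.99, 16.9 and 8.23 CPM (log2 fold change 1.68 ± 0.39, adjusted p = 0.042). Sox9, a transcription factor of crypt cells, overlapped between the sorts, at 106, 70.1, 81.7 and 37.3 CPM (log2 fold change 0.56 ± 0.33, adjusted p = 0.28). Of 22 stem cell genes tested, 3 rose, 0 fell and 19 did not pass. Their median log2 fold change was 1.24, against -0.018 over all genes tested, and it was 0.81 against replicate 1 and 1.91 against replicate 2. The counts called were 8 and 16 higher, with 1 lower against replicate 2.

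**Figure D1:**
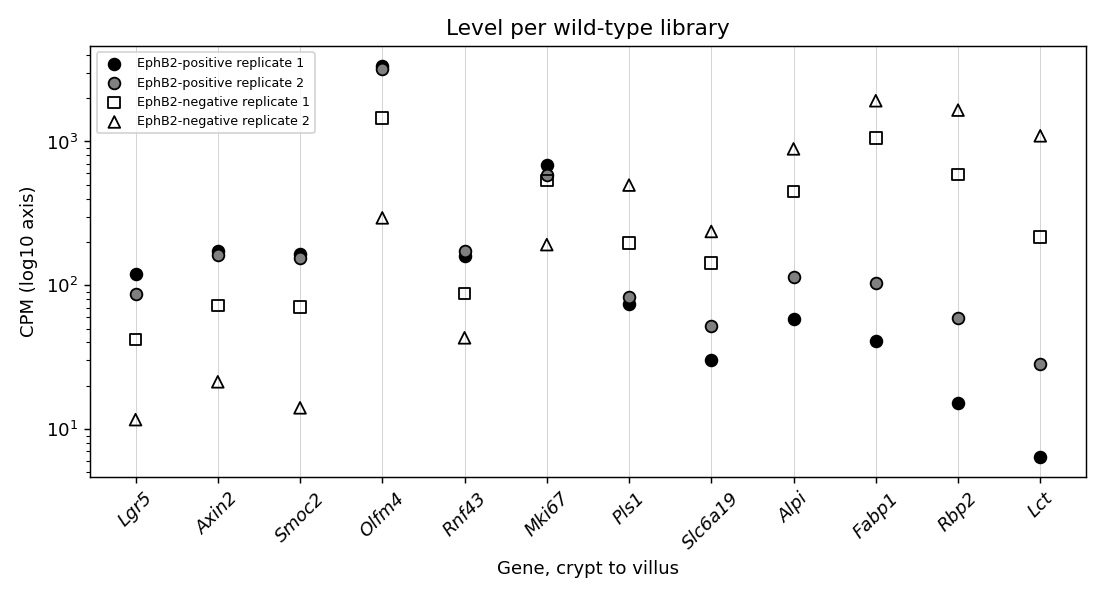
Level of 12 genes in each of the 4 wild-type libraries, as CPM on a log10 axis (y). Crypt genes are on the left and villus genes on the right (x). Within each side the order was set by hand and is not a measured position, and on the villus side it follows the log2 fold change. Black and grey circles are EphB2-positive replicates 1 and 2, open squares EphB2-negative replicate 1 and open triangles EphB2-negative replicate 2. From Lgr5 to Mki67 the EphB2-positive libraries lie above both EphB2-negative ones, and from Pls1 to Lct below them, with replicate 1 of the EphB2-negative cells between the others in each. The 12 genes are a selection from those named in the text, and the crypt gene Sox9, which overlapped between the sorts, is not shown.

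Among genes of Wnt, Notch and Hedgehog signalling, a few receptors and adaptors rose. Ptk7, a Wnt co-receptor, rose, at 23.6, 18.3, 6.85 and 3.39 CPM (log2 fold change 2.01 ± 0.43, adjusted p = 0.037), as did Kank1, an adaptor of the cell cortex, at 50.1, 48.3, 27.8 and 23.7 CPM (log2 fold change 0.93 ± 0.23, adjusted p = 0.049). Myc, a Wnt target that drives growth, stood at 140.5, 103, 78.1 and 36.8 CPM without overlap but did not pass (log2 fold change 1.08 ± 0.35, adjusted p = 0.091). The Wnt list had 19 genes tested, of which 3 rose and 0 fell, with a median of 0.81. Notch1 (chromosome 2, 26457903 to 26516663 on GRCm38, minus strand), the receptor that keeps stem cells from the secretory fate, rose, at 95.8, 116, 49.8 and 44.04 CPM (log2 fold change 1.18 ± 0.18, adjusted p = 0.017), with log2 fold changes of 1.09 against replicate 1 and 1.27 against replicate 2. Its target Hes1, a repressor of secretory fate, stood at 88.4, 104, 65.7 and 43.6 CPM without overlap (log2 fold change 0.81 ± 0.22, adjusted p = 0.062). Dll1, a Notch ligand of secretory precursors, overlapped, at 73.2, 54.8, 26.5 and 57.1 CPM: it rose against EphB2-negative replicate 1 (1.27, adjusted p = 0.009) and did not pass against replicate 2 (0.16, adjusted p = 0.61). Of 16 Notch genes, 1 rose and 0 fell. Smo, the signal transducer of Hedgehog, rose against either replicate (2.14 and 1.90), while the ligand Ihh did not pass, at 46.7, 61.7, 66.7 and 61.9 CPM (log2 fold change -0.25 ± 0.28, adjusted p = 0.58). The other 12 of 13 Hedgehog and BMP genes tested did not pass.

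Genes of mitosis lay on the EphB2-positive side in every one of the 34 tested, and 3 of them rose. Top2a, the topoisomerase that untangles chromosomes, stood at 634, 539, 399 and 199.9 CPM (log2 fold change 0.97 ± 0.28, adjusted p = 0.071), and Mki67, a protein of the surface of mitotic chromosomes, at 681, 582, 536 and 192 CPM (log2 fold change 0.79 ± 0.38, adjusted p = 0.20). In both, the EphB2-positive libraries were highest and EphB2-negative replicate 2 lowest. The mitotic kinase Plk1 rose, at 126, 118, 76.7 and 53.2 CPM (log2 fold change 0.91 ± 0.19, adjusted p = 0.033), as did the spindle motor Kif20a, at 94.3, 86.3, 43.4 and 21.8 CPM (log2 fold change 1.47 ± 0.30, adjusted p = 0.033), and Anln, an actin-binding protein of the cleavage furrow, at 70.7, 64.1, 39.3 and 21.8 CPM (log2 fold change 1.14 ± 0.25, adjusted p = 0.039). Ccnb1 and Cdk1, the cyclin and kinase that start mitosis, stood at 146, 138, 117 and 31.5 CPM and 182, 133, 114 and 42.1 CPM without passing (log2 fold change 0.93 ± 0.46, adjusted p = 0.23; log2 fold change 1.01 ± 0.40, adjusted p = 0.14). Of 34 mitotic genes, 3 rose and 0 fell, and in all 34 the sorts did not overlap. Their median was 0.98, and 0.49 against replicate 1 (4 called) and 1.73 against replicate 2 (34 called).

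Mcm2, a subunit of the replicative helicase, stood at 240.2, 263, 157 and 76.5 CPM (log2 fold change 1.11 ± 0.27, adjusted p = 0.052), and Pcna, the sliding clamp, at 440.1, 437, 412 and 158 CPM (log2 fold change 0.62 ± 0.35, adjusted p = 0.27). In Mcm2 the sorts were well apart, whereas Pcna in EphB2-negative replicate 1 was close to the EphB2-positive level (0.089, adjusted p = 0.82). None of the 32 replication genes passed against both (19 at an unadjusted p under 0.05 by edgeR; DESeq2 called 5 higher and 0 lower), with a median of 0.89 and no overlap in 28. Against replicate 1 the median was 0.37, with 5 called, and against replicate 2 it was 1.84, with 32 called. Among genes that build ribosomes, Npm1, which encodes nucleophosmin, stood at 1351, 1207, 1062 and 547 CPM (log2 fold change 0.67 ± 0.27, adjusted p = 0.15). Of 30 such genes 0 passed against both (21 at an unadjusted p under 0.05 by edgeR; DESeq2 called 1 higher and 0 lower) (median 0.72) and 30 rose against replicate 2 (median 1.27).

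The promoters of 3 mitotic genes are shown because all genes of this list lay on 1 side. Each is the stretch of 120 bases before the RefSeq gene start (GRCm38.p6), on the gene's own strand. GENCODE places the starts of Ccnb1 and Cdk1 at 100786570 and 69352938, inside these stretches. Its start of Plk1, at 122159439, lies beyond the stretch shown. Capitals mark the CCAAT box (CCAAT or ATTGG) and the cell cycle homology region (TTTGAA or TTCAAA).
Plk1, chr7:122159315-122159434, plus strand: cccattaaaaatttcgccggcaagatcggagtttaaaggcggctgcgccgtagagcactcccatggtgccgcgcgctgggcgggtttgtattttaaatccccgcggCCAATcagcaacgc
Ccnb1, chr13:100786487-100786606, minus strand: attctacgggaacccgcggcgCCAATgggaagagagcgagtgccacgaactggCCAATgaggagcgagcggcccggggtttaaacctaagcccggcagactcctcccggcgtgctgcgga
Cdk1, chr10:69352913-69353032, minus strand: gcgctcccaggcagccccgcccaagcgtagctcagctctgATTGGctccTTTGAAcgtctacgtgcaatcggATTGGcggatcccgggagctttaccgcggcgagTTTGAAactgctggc
Ccnb1 has a pair of CCAAT boxes in this stretch, Cdk1 a pair of each motif, and Plk1 a CCAAT box just before the start. The CCAAT box of Ccnb1 and the TTTGAA of Cdk1 that are nearer the RefSeq start lie inside the GENCODE genes. In windows of the 250 bases before the start, searched on both strands, a CCAAT box lay in 25 of 31 windows of 29 mitotic genes matched by symbol (80.6%). The share was 35.3% of 11339 windows of the genes tested. It was also above 35.3% for replication genes (58.1%), brush border hydrolases (45.8%), lipid genes (42.9%) and stem cell genes (38.9%). For hormones and granins it was 30.4%. TTTGAA lay in 11 mitotic windows (35.5%), against 10.7%. Its share was also above 10.7% for hormones and granins (21.7%), lipid genes (17.9%) and brush border hydrolases (16.7%). For replication and stem cell genes it was 6.45% and 0%. TTTGAA shares the letters TTTGA with CTTTGAT, the motif of TCF and LEF factors, which was found in 1 of 18 windows of stem cell genes (5.56%) in 2 mitotic windows (6.45%), in 3 of 24 windows of brush border hydrolases (12.5%) and in 2.3% of those of the genes tested. A match is a description of letters, not of a bound site.

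Of 18 secretory and enteroendocrine fate factors tested 2 rose, 1 fell and 15 did not pass, whereas 13 of 19 hormone and granin genes fell and 1 rose. The median of the fate factors was -0.040, and 0.43 and -0.29 against EphB2-negative replicates 1 and 2. Neurog3 (chromosome 10, 62133090 to 62134763 on GRCm38, plus strand), the transcription factor that starts the enteroendocrine fate, was higher in EphB2-positive cells in each replicate, at 23.1, 15.8, 5.02 and 3.87 CPM, and rose against replicate 1 (1.94) and replicate 2 (2.31) alike. Sox4, a transcription factor of secretory precursors, also rose, at 56.98, 49.3, 24.7 and 20.3 CPM (log2 fold change 1.24 ± 0.21, adjusted p = 0.023). Lmx1a, which acts in serotonin cells, fell, at 0.982, 1.48, 9.13 and 54.2 CPM (log2 fold change -4.61 ± 1.05, adjusted p = 0.045), whereas Neurod1, the factor downstream of Neurog3, did not pass and stood at 6.39, 4.93, 10.04 and 32.9 CPM (log2 fold change -1.91 ± 0.59, adjusted p = 0.083). For hormones and granins the medians against EphB2-negative replicates 1 and 2 were -1.95 and -2.60, with 11 and 15 members called lower.

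Chga, the granin of hormone granules, stood at 58.9, 28.6, 522 and 1538 CPM (log2 fold change -4.55 ± 0.61, adjusted p = 0.018), and Ghrl, which encodes ghrelin, at 12.8, 10.4, 224 and 107 CPM (log2 fold change -3.83 ± 0.46, adjusted p = 0.015). Both were lower in each EphB2-positive library, and Ghrl was highest in EphB2-negative replicate 1. Tph1 and Sst were chosen after their values were seen: Tph1, the enzyme that makes serotonin in enterochromaffin cells, stood at 3.93, 1.97, 46.1 and 180.02 CPM (log2 fold change -5.22 ± 0.77, adjusted p = 0.022), and Sst, which encodes somatostatin, at 36.4, 17.3, 146 and 199 CPM (log2 fold change -2.68 ± 0.41, adjusted p = 0.019). Gcg, proglucagon of L cells, rose instead, at 213, 159.8, 54.8 and 52.3 CPM (log2 fold change 1.80 ± 0.27, adjusted p = 0.017), with nearly equal levels in the EphB2-negative replicates. Pyy, the other hormone of L cells, did not pass, at 65.3, 66.1, 42.002 and 64.8 CPM (log2 fold change 0.30 ± 0.26, adjusted p = 0.48), nor did Cck, a hormone of the upper gut, at 117, 50.3, 138 and 83.2 CPM (log2 fold change -0.40 ± 0.38, adjusted p = 0.51).

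Goblet genes differed mainly between the EphB2-negative replicates. Muc2, the gel-forming mucin, stood at 128, 119, 237 and 2562 CPM, and Fcgbp, a mucus protein, at 945, 748, 1634 and 14005 CPM. Both were many times higher in EphB2-negative replicate 2 than in any other library, and neither passed against both (log2 fold change -3.50 ± 1.01, adjusted p = 0.088; log2 fold change -3.21 ± 0.91, adjusted p = 0.083). Tff3, the trefoil peptide of goblet cells, stood at 393, 328, 361 and 2637 CPM, with a log2 fold change of -0.0023 against replicate 1 (adjusted p = 1), and fell against replicate 2 (-2.87, adjusted p = 0.0018). None of the 21 goblet genes passed against both (9 at an unadjusted p under 0.05 by edgeR; DESeq2 called 0 higher and 4 lower). Their median was 0.27 against replicate 1, with 2 higher, and -1.75 against replicate 2, with 13 lower. Among Paneth genes, Lyz1, lysozyme, stood at 31.4, 17.8, 11.4 and 54.7 CPM (log2 fold change -0.42 ± 0.89, adjusted p = 0.80). Only Reg4, a secreted lectin that marks secretory cells more broadly, fell of the 17 tested, at 47.2, 35.03, 406 and 1010.5 CPM (log2 fold change -4.10 ± 0.54, adjusted p = 0.017), and it was lower against either replicate. Clca3b, of the family of chloride channel regulators, rose, at 569, 569, 261 and 87.1 CPM (log2 fold change 1.71 ± 0.40, adjusted p = 0.049), with reads that could be shared with its close relatives. Tuft cell genes were near the floor: Dclk1, the defining kinase, had 22, 2, 2 and 1 reads in the 4 libraries and Trpm5, a cation channel, 26, 2, 1 and 0, both mostly in EphB2-positive replicate 1, and neither had enough reads for the test. The 8 tuft cell genes tested lay the other way, all below 0 with a median of -1.39 and 3 without overlap, and none passed (1 at an unadjusted p under 0.05 by edgeR; DESeq2 called 0 higher and 0 lower). Their median was -0.14 against replicate 1 and -1.97 against replicate 2, where 2 were called lower, and it ran from -2.58 without EphB2-positive replicate 1 to -0.70 without replicate 2.

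Genes of fat absorption fell in EphB2-positive cells in 19 of 32 cases tested, and none rose. Fabp1 (chromosome 6, 71199827 to 71205023 on GRCm38, plus strand), a fatty acid binding protein of upper enterocytes, stood at 40.8, 104, 1059 and 1921 CPM (log2 fold change -4.36 ± 0.47, adjusted p = 0.011). Both EphB2-negative libraries were far above both EphB2-positive ones. Apoa4, the apolipoprotein of chylomicrons, stood at 137, 493, 2970.2 and 9739 CPM (log2 fold change -4.33 ± 0.74, adjusted p = 0.029), and Apob, their structural protein, at 252, 399.6, 1077 and 2393 CPM (log2 fold change -2.41 ± 0.41, adjusted p = 0.025). Rbp2, which carries retinol, stood at 15.2, 58.7, 589.9 and 1654 CPM (log2 fold change -4.92 ± 0.73, adjusted p = 0.023). Clps, which encodes the lipase cofactor colipase, stood at 7.86, 7.4002, 103 and 90.01 CPM, and fell against EphB2-negative replicates 1 and 2 alone (-3.75 and -3.55) as well as against both (adjusted p = 0.0019). Mogat2 and Mttp, which rebuild triglycerides and load them onto lipoproteins, fell, with log2 fold changes of -2.21 and -2.11 (adjusted p = 0.017 and 0.023). The lipid list had a median of -2.11 and no overlap in 29. The count was 14 against replicate 1 and 27 against replicate 2. Cd36, a fatty acid transporter, was near the floor except in EphB2-negative replicate 2 (0, 1.48, 0.913 and 24.7 CPM) and did not pass (log2 fold change -3.99 ± 1.53, adjusted p = 0.14).

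Promoters of 3 of these genes are shown because most genes of this list fell, as the 120 bases before the RefSeq start of GRCm38.p6. GENCODE places the starts of Fabp1, Apob and Rbp2 at 71199827, 7977648 and 98486115. The stretches of Fabp1 and Apob thus reach into the GENCODE gene, and that of Rbp2 lies wholly inside it. The marked TATA box of Fabp1 lies inside the GENCODE gene too. Capitals mark the TATA box (TATAAA or TTTATA) and CAAAGTNCA or its reverse complement, the motif of HNF4 factors.
Fabp1, chr6:71199759-71199878, plus strand: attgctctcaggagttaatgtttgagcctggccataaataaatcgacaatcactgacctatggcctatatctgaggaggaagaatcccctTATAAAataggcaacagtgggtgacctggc
Rbp2, chr9:98490417-98490536, plus strand: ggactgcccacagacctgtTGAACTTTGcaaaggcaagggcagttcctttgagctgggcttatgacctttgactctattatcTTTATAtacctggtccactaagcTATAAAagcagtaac
Apob, chr12:7977557-7977676, plus strand: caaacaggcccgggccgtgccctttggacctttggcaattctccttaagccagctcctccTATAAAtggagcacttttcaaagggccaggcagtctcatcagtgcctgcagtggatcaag
All 3 have a TATA box in this stretch and Rbp2 alone of them the HNF4 motif. In the windows of 250 bases, CAAAGTNCA lay in 4 of 28 windows of lipid genes (14.3%) and in 1.12% of those of the genes tested. It also lay in 2 of 24 windows of brush border hydrolases (8.33%) and 1 of 31 of replication genes (3.23%). It lay in 0 windows of mitotic genes, stem cell genes, and hormones and granins. TATAAA lay in 6 lipid windows (21.4%) and in 8 of 24 windows of brush border hydrolases (33.3%), against 6.56% for the genes tested, 4 of 18 windows of stem cell genes (22.2%) and 0 of 31 mitotic windows.

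At the brush border, 4 of 21 hydrolases and 5 of 21 scaffold genes fell. Lct (chromosome 1, 128284756 to 128328318 on GRCm38, minus strand), the lactase that digests milk sugar, stood at 6.39, 28.1, 216 and 1095 CPM (log2 fold change -5.24 ± 1.08, adjusted p = 0.049). Alpi, intestinal alkaline phosphatase, stood at 57.97, 114, 448 and 889 CPM (log2 fold change -2.96 ± 0.42, adjusted p = 0.017), and Sis, the sucrase that is scarce before weaning, at 12.8, 4.44, 41.1 and 206 CPM (log2 fold change -3.83 ± 0.88, adjusted p = 0.056). In all 3 the sorts did not overlap. The hydrolase median was -2.80, and -1.61 and -3.36 against the EphB2-negative replicates. Of the scaffold, Pls1, an actin bundler of microvilli, fell, at 73.7, 82.4, 196 and 497 CPM (log2 fold change -2.15 ± 0.40, adjusted p = 0.031), while Vil1, which encodes villin, stood at 744, 908, 998 and 1411 CPM (log2 fold change -0.54 ± 0.20, adjusted p = 0.12). The scaffold median was -0.58, and -0.31 and -0.79 against the EphB2-negative replicates. Among transporters, Slc6a19, the carrier of neutral amino acids, fell, at 29.97, 52.3, 143 and 237 CPM (log2 fold change -2.21 ± 0.33, adjusted p = 0.017). Slc2a2, the glucose exporter GLUT2, was at the floor in EphB2-positive cells, at 0.982, 0.987, 10.5 and 56.1 CPM, and did not pass (log2 fold change -4.99 ± 1.12, adjusted p = 0.062), whereas Slc5a1, the sodium-glucose carrier, stood at 111, 124, 174 and 364 CPM (log2 fold change -1.20 ± 0.33, adjusted p = 0.067). Of 29 transporters 9 fell and 0 rose (median -1.38).

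Genes of suckling enterocytes lay on the EphB2-negative side. Fcgrt, the neonatal receptor that carries milk antibodies, fell, at 52.6, 108, 302 and 723 CPM (log2 fold change -2.68 ± 0.49, adjusted p = 0.033), as did Dab2, the endocytic adaptor of lysosome-rich enterocytes, at 5.89, 10.4, 39.3 and 140.3 CPM (log2 fold change -3.45 ± 0.69, adjusted p = 0.039), and Lamp2, a lysosomal membrane protein, at 68.8, 76.96, 138 and 229 CPM (log2 fold change -1.33 ± 0.24, adjusted p = 0.025). Cubn, their scavenger receptor, had the same order without passing (6.39, 13.8, 31.5 and 151 CPM; log2 fold change -3.17 ± 0.80, adjusted p = 0.063). Of 25 such genes 11 fell, 0 rose and all 25 had a log2 fold change below 0. Prdm1, the repressor that holds the suckling state, was not among the genes that passed (43.7, 69.1, 51.6 and 101 CPM; log2 fold change -0.43 ± 0.30, adjusted p = 0.36). Afp (chromosome 5, 90490737 to 90508907 on GRCm38, plus strand), the fetal serum protein alpha-fetoprotein, had the smallest p of all genes tested, at 3.44, 2.96, 171 and 359.6 CPM, and was lower against replicate 1 (-5.71) and replicate 2 (-6.78). Igf2, a fetal growth factor, and Cdkn1c, a cell cycle inhibitor, both imprinted, fell as well, at 26.04, 18.3, 55.7 and 167 CPM and 6.39, 12.8, 44.3 and 122 CPM (log2 fold change -2.32 ± 0.51, adjusted p = 0.043; log2 fold change -3.11 ± 0.51, adjusted p = 0.023). Of 13 fetal serum protein and neonatal genes tested, 3 fell, 0 rose and 10 did not pass. Their median was -2.03, with 2 above 0.

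Cps1, the first enzyme of the urea cycle and of neonatal arginine synthesis, stood at 6309, 7552, 6198 and 3345 CPM (log2 fold change 0.54 ± 0.29, adjusted p = 0.25), and Otc, the next enzyme, stood at 171, 181, 206 and 160.2 CPM (log2 fold change -0.059 ± 0.23, adjusted p = 0.90). None of the 14 genes of this list passed (2 at an unadjusted p under 0.05 by edgeR; DESeq2 called 0 higher and 1 lower), and its median was -0.043.

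Of 32 transcription factors of the enterocyte, 4 fell, among them Creb3l3, Nr1h4 and Maf. Hnf4a, a master factor of enterocyte genes, stood at 940.2, 1146, 912 and 678 CPM (log2 fold change 0.39 ± 0.19, adjusted p = 0.20) and Cdx2, which sets intestinal identity, at 265, 259.99, 235 and 181 CPM (log2 fold change 0.34 ± 0.18, adjusted p = 0.24). Neither passed, and both log2 fold changes were above 0. Creb3l3, a membrane-bound factor that controls lipid genes, fell, at 61.4, 88.8, 422 and 545 CPM (log2 fold change -2.69 ± 0.30, adjusted p = 0.011), and against each replicate alone (-2.49 and -2.86). Nr1h4, the bile acid receptor, stood at 50.1, 55.3, 111 and 229 CPM (log2 fold change -1.69 ± 0.30, adjusted p = 0.025), and the bZIP factor Maf, named after its values were seen, at 7.86, 12.8, 36.5 and 93.9 CPM (log2 fold change -2.65 ± 0.48, adjusted p = 0.028). Klf4, a factor of goblet and upper villus cells, was high in EphB2-negative replicate 2 alone, at 41.8, 48.8, 24.7 and 166 CPM (log2 fold change -1.07 ± 0.78, adjusted p = 0.40). None rose, and the list median was -0.12, and 0.074 and -0.10 against EphB2-negative replicates 1 and 2.

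Of genes known from the villus tip of adult mice 8 of 29 fell, with a median of -0.70. That median rested on single libraries: it was -0.16 against replicate 1 and -1.45 against replicate 2, and -0.19 and -2.08 without EphB2-positive replicates 1 and 2 in turn. Gda and Xdh, enzymes of purine breakdown, fell, at 11.8, 12.3, 79.9 and 294 CPM (log2 fold change -3.95 ± 0.60, adjusted p = 0.023) and 11.3, 7.89, 35.2 and 69.7 CPM (log2 fold change -2.44 ± 0.41, adjusted p = 0.023). Nt5e, which makes adenosine outside the cell, was near 0 in EphB2-positive cells, at 1.47, 0, 8.67 and 76.5 CPM, and did not pass (log2 fold change -5.72 ± 1.31, adjusted p = 0.052). Ada, the adenosine deaminase of the adult tip, had the opposite order, at 15.2, 20.2, 11.4 and 3.39 CPM (log2 fold change 1.24 ± 0.46, adjusted p = 0.12), and was higher than replicate 2 (2.36, adjusted p = 0.00079). The list of the villus base had 1 of 18 called lower, which was Il18, an epithelial cytokine (3.44, 4.93, 12.8 and 26.1 CPM; log2 fold change -2.19 ± 0.46, adjusted p = 0.036). The antimicrobial lectins Reg3b and Reg3g of that list were high in EphB2-negative replicate 2 alone, at 25.5, 46.9, 24.2 and 902 CPM and 21.6, 31.1, 36.1 and 481 CPM (log2 fold change -3.67 ± 1.36, adjusted p = 0.14; log2 fold change -3.29 ± 1.01, adjusted p = 0.094).

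**Figure D2:**
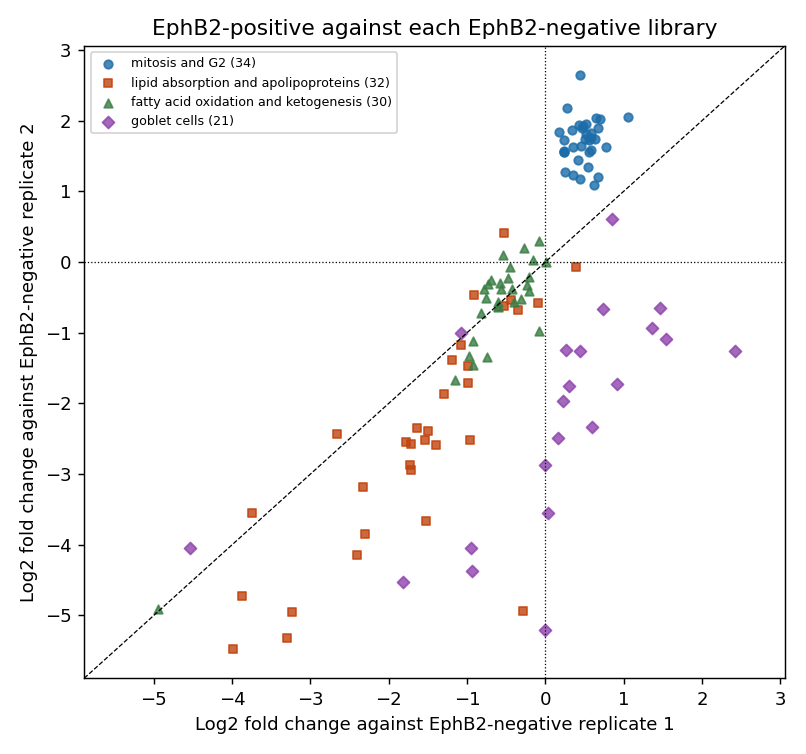
Log2 fold change of each tested member of 4 gene lists in EphB2-positive cells against EphB2-negative replicate 1 alone (x) and against replicate 2 alone (y); 1 point is a gene, dotted lines mark 0, the dashed line marks equal values, and both axes share the EphB2-positive libraries. Mitotic genes lie above 0 on both axes, nearly all lipid genes below 0 on both, fatty acid oxidation genes near the dashed line, and goblet genes on both sides of 0 in x and mostly below 0 in y.

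Of genes of fatty acid oxidation 7 of 30 fell, and the list medians against EphB2-negative replicates 1 and 2 were -0.57 and -0.39. Cyp4a10, a fatty acid hydroxylase controlled by PPAR-alpha, stood at 0.491, 1.48, 32.4 and 31.5 CPM (log2 fold change -4.93 ± 0.64, adjusted p = 0.017). Slc25a20, the carnitine carrier of mitochondria, stood at 79.1, 106, 176 and 201 CPM (log2 fold change -1.02 ± 0.18, adjusted p = 0.024). In both the sorts did not overlap. Of 32 subunits of oxidative phosphorylation none passed (1 at an unadjusted p under 0.05 by edgeR; DESeq2 called 0 higher and 1 lower), and the median was 0.097, turning from -0.15 against replicate 1 to 0.36 against replicate 2. For ion transport, Slc26a3, the chloride-bicarbonate exchanger of surface cells, fell, at 64.8, 83.9, 168 and 221 CPM (log2 fold change -1.39 ± 0.20, adjusted p = 0.017), while Cftr, the chloride channel of crypts, stood at 256, 268, 207 and 83.2 CPM (log2 fold change 0.85 ± 0.34, adjusted p = 0.15). Keratins and junction genes did not pass in any of 28 cases (6 at an unadjusted p under 0.05 by edgeR; DESeq2 called 1 higher and 1 lower). Krt20, the keratin of mature cells, fell against each replicate alone (31.4, 34.04, 59.4 and 238 CPM; -0.86, adjusted p = 0.023, and -2.86, adjusted p = 2.3e-09).

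**Figure D3:**
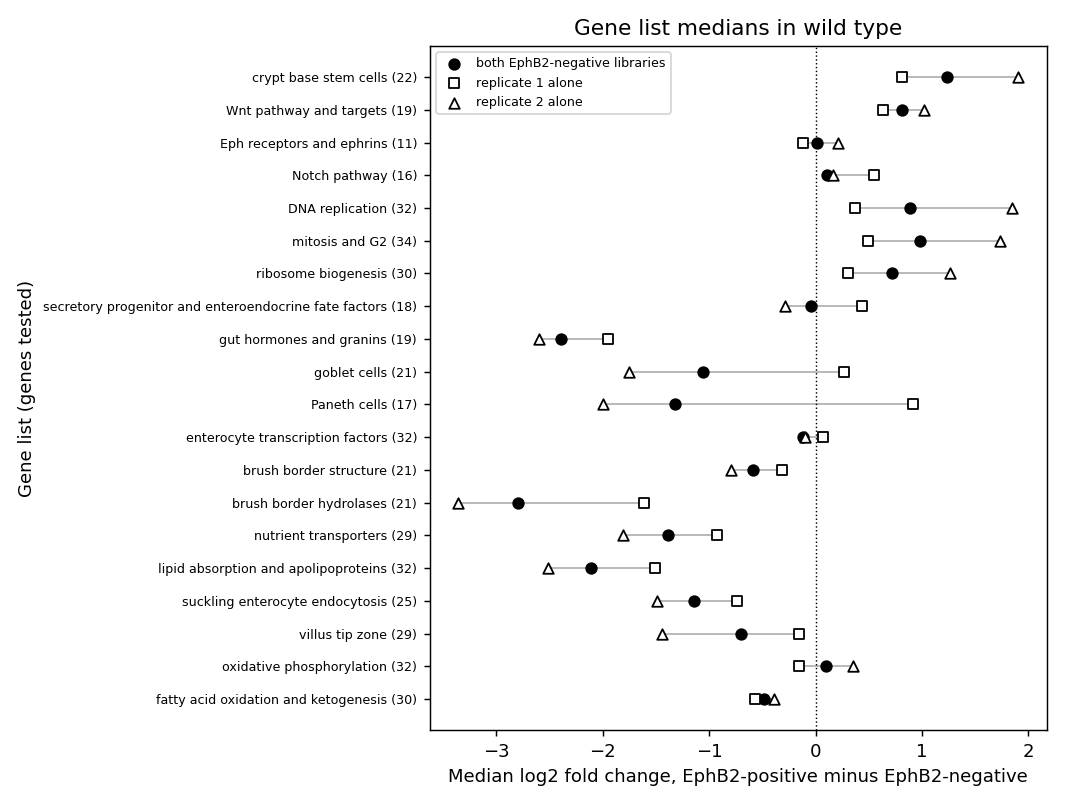
Median log2 fold change of the tested members of 20 epithelial gene lists (y) in EphB2-positive cells, against both EphB2-negative libraries (filled circle), replicate 1 alone (open square) and replicate 2 alone (open triangle), with the number of genes in brackets; the dotted line marks 0. The square lies nearer 0 than the triangle in most lists, and on the other side of 0 from it for the lists of Eph genes, secretory fate factors, goblet cells, Paneth cells, enterocyte factors and oxidative phosphorylation.

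The EphB2-negative libraries also held RNA of other cells. Ptprc, which encodes the leukocyte antigen CD45, had 0 reads in both EphB2-positive libraries and stood at 7.76 and 167 CPM in EphB2-negative replicates 1 and 2. The sum over 15 pan-leukocyte genes was 87.4, 84.4, 158 and 1281 CPM, of which Lcp1, an actin bundler, gave 62.9, 61.2, 78.98 and 353 CPM; 6 members were at 0 in the EphB2-positive cells. Of mast cell genes 11 of 15 were at 0 there, and 6 of 12 tested fell. Mcpt1, a protease of mucosal mast cells, had 0, 0, 275 and 1543 reads in the 4 libraries, at least 578-fold lower against a floor of 3 reads over the EphB2-positive pair, and Cpa3, a carboxypeptidase of mast cells, had 0, 0, 35 and 108. The list summed to 277 and 1517 CPM in EphB2-negative cells. Macrophage and dendritic genes summed to 25.5, 29.6, 49.3 and 660.1 CPM, and lymphocyte genes to 57.97, 56.2, 111 and 1130.5 CPM. These immune lists were thus highest in replicate 2, the library with the larger sort differences, and their part in the other results was not tested.

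Pancreatic genes were instead highest in EphB2-negative replicate 1. Ctrb1, which encodes the digestive enzyme chymotrypsinogen, stood at 2.46, 4.44, 831 and 68.2 CPM, and Cpa1, a pancreatic carboxypeptidase, at 0.982, 0, 163 and 10.6 CPM. The 14 genes summed to 58.5, 34.5, 1873 and 216 CPM. Against replicate 1 alone 8 of 12 were lower, as were 8 against replicate 2, and none passed against both (11 at an unadjusted p under 0.05 by edgeR; DESeq2 called 0 higher and 7 lower). Clps is also a pancreatic gene, and its levels are those given above. Stromal genes were low: Col1a1, the main fibrillar collagen, stood at 0, 9.37, 0 and 3.87 CPM, Cdh5 of endothelium had 0 reads in all 4 libraries, and fibroblast and muscle genes summed to 28, 70.1, 29.2 and 164 CPM. Hba-a1, the haemoglobin of red cells, had 0 reads in each.

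**Figure D4:**
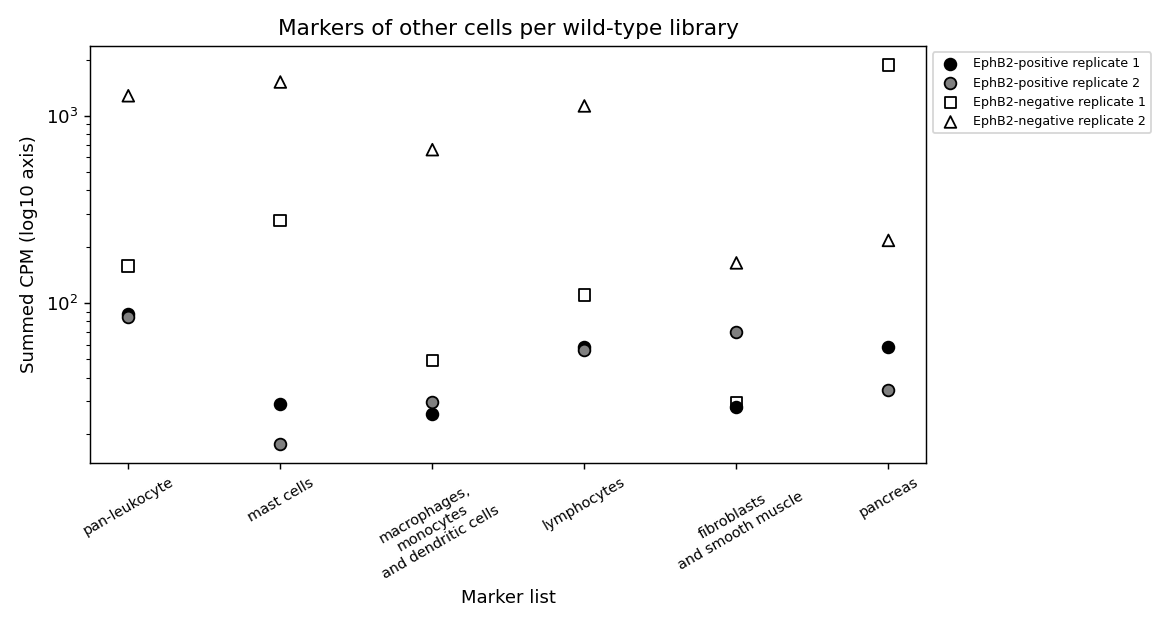
Summed CPM of 6 marker lists of other cells (x) in each of the 4 wild-type libraries, on a log10 axis (y); black and grey circles are EphB2-positive replicates 1 and 2, the open square EphB2-negative replicate 1 and the open triangle replicate 2. The 4 immune lists are highest in replicate 2, and the pancreatic list is highest in replicate 1.

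The sort in KO mice is the comparison most like this one and shares no library with it. Nfkbia, which encodes IκBα, stood at 28.5, 80.4, 21.5 and 55.2 CPM in WT and at 0 CPM in all 5 KO libraries. The difference between the sort effects (KO minus WT) passed for 1430 genes (12.4%), 757 above 0 (6.54%) and 673 below 0 (5.81%). The stem cell median was 1.24 in WT and 2.41 in KO, and 3 of 22 members had a larger effect in KO by the test of the difference. For ribosome building 16 of 30 did (medians 0.72 and 2.32), and for mitosis 10 of 34 (medians 0.98 and 2.35). On the villus side 13 of 21 scaffold genes of the brush border had a deeper deficit in KO (medians -0.58 and -1.99), as did 11 of 32 lipid genes (medians -2.11 and -3.30), while for 2 lipid genes the difference passed above 0. For hormones and granins the difference passed for 1 above 0 and 1 below 0 of 19 (medians -2.39 and -2.33).

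The single genes that follow are among those with the smallest p of edgeR's test of the difference, and do not show its typical size. The median difference was 1.37 for mitotic genes and -1.53 for lipid genes. Ccnd2, a cyclin of early G1, stood at 461, 482, 403 and 323 CPM in WT (log2 fold change 0.38 ± 0.18, adjusted p = 0.21) and at 403 ± 65.6 and 67.03 ± 3.84 CPM in KO EphB2-positive and EphB2-negative cells. Slc34a2, a phosphate carrier of the brush border, stood at 108, 142, 197 and 361 CPM in WT and 12.3 ± 3.27 and 638 ± 195 CPM in KO. Dgat1, an enzyme of triglyceride synthesis, stood at 127, 172, 216 and 229 CPM in WT and 69.1 ± 5.88 and 652 ± 101 CPM in KO. Without EphB2-negative replicate 1 the difference passed for 2360 genes, and without replicate 2 for 4011. Without EphB2-positive replicates 1 and 2 in turn it passed for 256 and 32.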

How the data were processed

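RNA of 9 sorted cell samples was sequenced, and the authors deposited raw read counts per gene symbol (24421 symbols a file, without the 5 summary lines). Per the submitters' processing notes, Bowtie2, HTSeq, DESeq2, FastQC and CASAVA 1.4 were used with mm10; no source used here gives parameters, strand setting or annotation. The cDNA was amplified without molecular identifiers, so floors and intervals cover counting error only. Members, gene lists and tests were chosen with earlier results of these data known.

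Counts were tested with edgeR 4.0.16 (filterByExpr, TMM, quasi-likelihood test, Benjamini-Hochberg over 11577 genes) in 1 fit of all 9 libraries by group, with 5 residual degrees of freedom. A floor of 3 reads over a group bounds ratios against 0. Alternatives were DESeq2 1.42.0, its size factors, 2 filters, the 4 WT libraries alone, a block for the replicate number and each WT library left out. Scripts were tested on simulated data. Named genes were Ephb2, Nfkbia, list markers, the first 3 tested members of each list by p, the 10 highest and lowest called genes without overlap at a mean of 10 CPM, and the 5 smallest p each way for the difference from KO; a few of these are not reported here. Positions are from GENCODE (GRCm38), promoters from RefSeq (GRCm38.p6). A gene read mainly in 1 sort could pass the filter only by being high there, so list counts are descriptions.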

Additional observations from a re-analysis of the deposited data

Results flagged for a closer look

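The sort effect in KO differed from that in wild type by edgeR's test of the difference itself, and genes with the smallest p on each side are given here as KO minus WT log2 values. Above 0 were Ipo7, a nuclear import receptor, at 2.04, Ccnd2 at 2.21, Mat2a, which makes S-adenosylmethionine, at 2.26, and Usp14, a proteasome deubiquitinase, at 1.92. The wild-type log2 fold changes of these 4 were 0.49, 0.38, 0.19 and 0.11, and none passed. Below 0 were Naprt, an enzyme of NAD synthesis, at -2.56, Smim24 at -2.65, Dgat1 at -2.66, Slc34a2 at -4.56 and Clcn2, a chloride channel, at -2.53. In wild type these stood at -0.59, -0.78, -0.58, -1.16 and 0.29, of which Smim24 passed. The groups hold 2 or 3 libraries, too few to look for single outlying samples.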

How the results depend on the processing

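Against both EphB2-negative libraries 513 genes passed, 76 higher and 437 lower. DESeq2 gave 976 (131 and 845), and without a low-count filter 118 were higher. The wild-type libraries alone gave 0 (1750 at an unadjusted p under 0.05). With the replicate block 1251 passed (254 and 997). With it the genes called higher went from 3 to 11 of 22 for stem cells, Lgr5, Axin2, Olfm4 and Ascl2 among them, from 3 to 20 of 34 for mitosis, from 0 to 5 of 32 for replication and from 0 to 4 of 30 for ribosome building. With the wild-type libraries alone and the replicate block, 658 were lower. The deviations of same-numbered wild-type libraries correlated at r = 0.132 over 11577 genes, with only 2 pairs, so the numbers are not shown to pair the samples. Leaving out 1 wild-type library at a time gave 0 to 4795 genes in all, 0 to 2189 higher and 0 to 2606 lower, and 32 to 4011 for the difference from KO. The causes were not tested.

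Of 113 named genes tested, Efnb1 turned sign with DESeq2 size factors (-0.012), the stricter filter (-0.0030) and DESeq2 (-0.012). With 1 library left out, signs turned at Cck (range -1.14 to 0.083), Col1a1 (range -4.88 to 6.15), Efnb1 (range -0.15 to 0.20), Epcam (range -0.055 to 0.71), Fos (range -1.83 to 2.45), Klf4 (range -1.87 to 0.88), Lyz1 (range -1.15 to 1.10), Mat2a (range -0.077 to 0.53), Nfkbia (range -0.42 to 1.34), Otc (range -0.23 to 0.13), Prdm1 (range -0.84 to 0.13), Reg3b (range -4.64 to 0.58) and Usp14 (range -0.095 to 0.36); none of these genes had passed. Of 51 that had passed, 49 did so with DESeq2 size factors, 44 without a filter, 50 with the stricter one, 50 with DESeq2, 51 with the replicate block and 48 with the block in wild type alone. At this depth genes of a few CPM rest on a handful of reads, and a missed threshold does not show that levels did not differ.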
